A study of Mus musculus with 34 samples.

Results

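The adipose libraries of mice given cycles of a fasting mimicking diet (FMD) on a high-fat, high-calorie diet (HFCD) differed among themselves in the messenger RNA of fatty acid synthesis, and 2 sets of these libraries are compared here across all genes. There were 6 such HFCD+FMD libraries of 13 adipose libraries with data columns, out of 27 with columns in both tissues. They were divided by the deposited log2 CPM (CPM is a gene's count relative to the total of its library) of Acaca, the acetyl-CoA carboxylase that commits carbon to fatty acid synthesis, at a threshold of 7.5. Replicates 2, 3 and 5, chosen by Acaca values of 8.50, 8.50 and 8.40, form the high set. Replicates 1, 4 and 6, with 6.80, 6.19 and 6.02, form the low set. The value just above the threshold was 8.40 (replicate 5) and the value just below it was 6.80 (replicate 1). In the same table Acaca lay between 9.54 and 10.23 in the 3 control libraries and between 5.77 and 6.02 in the 4 HFCD libraries. Because Acaca was measured in the libraries it divided, every difference between the sets is a description and carries no p-value. The rate of lipogenesis was not among the values used, so the sets are called high-Acaca and low-Acaca libraries.

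All mice were C57BL/6J. Control mice ate a diet with 10% of calories as fat, HFCD mice one with 60%, and HFCD+FMD mice ate the 60% diet with an FMD of 5 days in every 4 weeks. From cycle 6 on, each FMD was followed by 2 days of the control diet, which both sets received. Tissue came 4 days after the end of the last of 11 cycles. The mice were 20 months old, except 1 mouse of 21 months in each diet, which among the HFCD+FMD libraries is replicate 3 (high-Acaca). The adipose depot and the hour of tissue collection were not given in the sources used here.

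Fatty acid synthesis turns citrate exported from mitochondria into cytosolic acetyl-CoA, malonyl-CoA and then palmitate, which is elongated, desaturated and esterified to triglyceride. It consumes NADPH, made by malic enzyme and the pentose phosphate pathway. In adipocytes the pathway is induced by insulin and carbohydrate through the transcription factors SREBP1c and ChREBP, and it is known to be low on a fat-rich diet. Adipose tissue of obese mice is also known for lipid-laden macrophages, which gather around dying adipocytes.

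The adipocyte identity of both sets was visible in their counts. Of 16 names of adipocyte markers 15 passed the filter on low counts. The name that did not, Tusc5, is an older symbol of Trarg1, which is among the 15. Adipoq (the hormone adiponectin) lay at 1390 to 3365 CPM in the 6 libraries. The summed markers were 23074 to 28359 CPM in the high-Acaca and 21045 to 27920 CPM in the low-Acaca libraries. None of 10 mammary markers and 1 of 18 epididymis and testis markers were among the genes kept. The deposited count table held 15145 genes, and the filter kept 15112 of them. Over all lists, many names not kept were therefore absent from that table under the name used, and were not removed by the filter. The Y-linked genes Ddx3y, Kdm5d, Eif2s3y and Uty, named after the results were seen, were not among the genes kept either. The absence of genes of male organs is therefore no check on the purity of the tissue. Totals were 32989828 to 40831656 counts in the high-Acaca and 27868228 to 30054780 in the low-Acaca libraries, so each high-Acaca library was the deeper. With counts thinned to the lowest of these totals, 1435 genes lay higher and 1144 lower in the high-Acaca set without overlap, against 1437 and 1151 at full depth. Counts on the mitochondrially encoded genes present in the deposited table made up 7.04%, 7.47% and 4.32% in replicates 2, 3 and 5. They made up 7.14%, 3.90% and 2.20% in replicates 1, 4 and 6. The part of RNA composition in the differences below was not tested.

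Start-site windows are shown for the genes of fatty acid synthesis with the largest differences between the sets, to set their upstream sequences side by side. Of 14 genes on the list, 11 have a window of 250 bases before to 50 bases after a RefSeq start site in GRCm38.p6. Scd1, Scd2 and Fads1 are named only. The start site used is not always the outermost of the gene. The windows of Acaca, Acacb and Mid1ip1, all on the plus strand, begin at chr11:84195188, chr5:114165268 and chrX:10717115. They lie inside the GENCODE genes, which begin at 84129672, 114146535 and 10715013. Capitals mark the letters CCAAT on either strand, the core bound by the factor NF-Y, and each sequence is written 5′ to 3′ on the strand of its gene. Fasn lies at chr11:120824498-120824797 on the minus strand, Elovl6 at chr3:129532136-129532435 on the plus strand, Acly at chr11:100527951-100528250 on the minus strand and Acss2 at chr2:155517793-155518092 on the plus strand.
Fasn: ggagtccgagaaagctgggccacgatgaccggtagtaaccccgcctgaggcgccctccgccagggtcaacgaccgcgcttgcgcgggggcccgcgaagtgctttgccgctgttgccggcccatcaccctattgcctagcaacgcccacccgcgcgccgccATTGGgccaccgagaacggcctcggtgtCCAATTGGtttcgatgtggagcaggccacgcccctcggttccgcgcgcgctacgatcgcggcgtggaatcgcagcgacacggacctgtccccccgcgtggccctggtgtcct
Elovl6: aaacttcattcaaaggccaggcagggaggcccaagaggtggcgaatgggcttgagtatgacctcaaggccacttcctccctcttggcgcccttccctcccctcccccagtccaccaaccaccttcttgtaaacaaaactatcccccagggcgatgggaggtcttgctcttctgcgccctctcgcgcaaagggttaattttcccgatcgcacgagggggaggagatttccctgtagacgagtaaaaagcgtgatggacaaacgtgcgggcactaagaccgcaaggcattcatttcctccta
Acly: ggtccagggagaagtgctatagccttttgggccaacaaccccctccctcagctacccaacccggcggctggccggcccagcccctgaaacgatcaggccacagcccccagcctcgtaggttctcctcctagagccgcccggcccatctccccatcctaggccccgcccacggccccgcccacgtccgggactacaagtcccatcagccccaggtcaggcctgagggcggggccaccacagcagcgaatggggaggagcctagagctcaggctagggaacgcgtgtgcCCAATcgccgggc
Acss2: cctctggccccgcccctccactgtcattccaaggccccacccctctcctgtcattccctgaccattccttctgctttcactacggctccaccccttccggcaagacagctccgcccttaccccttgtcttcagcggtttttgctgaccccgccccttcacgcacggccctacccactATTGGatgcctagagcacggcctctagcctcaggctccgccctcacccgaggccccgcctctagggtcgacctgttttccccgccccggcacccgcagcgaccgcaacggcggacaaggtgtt
The letters CCAAT occurred 3 times in the window of Fasn, 1 time in that of Acly and 1 time in that of Acss2, and were not found in that of Elovl6. Of the 11 windows 7 held CCAAT on either strand, against 37.4% of all 32851 windows of this length. The E-box letters CACGTG were in 2 of 11 (7.15% of all windows), the GC box GGGCGG in 5 of 11 (35.7%) and the sterol regulatory element TCACNCCAC in 0 of 11 (1.24%). Each motif was searched on both strands. No 2 matches of different motifs shared bases, and 1 pair of CCAAT matches did, that of Fasn at positions -62 and -59 from the start site on opposite strands. The match of Acly lies after the start site, at position 38, and that of Acss2 before it, at position -73. These are matches of letters, not binding sites.

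Fatty acid synthesis genes were far higher in the high-Acaca libraries, and the difference was spread over nearly the whole route from citrate to desaturated fatty acid. Of the 13 genes on the list other than Acaca, 9 were apart and higher, meaning that the lowest of the 3 high-Acaca libraries lay above the highest of the 3 low-Acaca libraries, and 0 were apart and lower. Among all 15111 genes compared, 9.51% were apart and higher, 7.62% apart and lower and 17.1% either way. On the mean, 7981 of the 15111 genes were higher and 7130 lower in the high-Acaca libraries. These values for all genes stand beside the counts of every list below. The median difference of the list was 1.48 on the log2 scale, against 0.02 over all genes. Since Acaca chose the sets and belongs to this pathway, the count shows how far the division by 1 gene extended to its neighbours in the pathway and is not support for it.

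Fasn, the synthase that builds palmitate, stood at 6190, 6417 and 6974 CPM in high-Acaca replicates 2, 3 and 5 and at 1278, 769 and 804 CPM in low-Acaca replicates 1, 4 and 6. Its log2 difference was 2.82 (pooled SD within sets 0.29, n = 3 and n = 3), the largest on the list. Dividing the 6 libraries by Fasn instead of Acaca gave the same sets, which follows from its sets being apart and is no check on the division. Elovl6, which elongates palmitate, was at 103, 97.5 and 110 CPM in the high-Acaca and 28.3, 18.97 and 11.3 CPM in the low-Acaca libraries, a log2 difference of 2.498 (SD 0.47). The high-Acaca libraries agreed closely with each other in both genes, and the low-Acaca libraries spread more widely, with replicate 1 the highest of them. Acaca itself, given as the value that made the division, was 367, 366 and 342 CPM against 113, 73.9 and 65.7 CPM.

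The enzymes that supply cytosolic acetyl-CoA shared the pattern. Acly, which cleaves citrate, was at 1248, 1233 and 1238 CPM against 308, 344 and 259 CPM, a log2 difference of 2.04 (SD 0.15). Acss2, which activates acetate, was at 312, 299 and 224 CPM against 66.0, 93.7 and 86.9 CPM, a log2 difference of 1.76 (SD 0.26). Slc25a1, the mitochondrial citrate carrier, was at 313, 302 and 333 CPM against 98.9, 181 and 180 CPM (log2 difference 1.09, SD 0.36). In all 3 genes the sets were apart, and the low-Acaca library with the least Acss2 and Slc25a1 was replicate 1, the one with the most Fasn, Elovl6 and Acaca.

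The desaturases and Thrsp, a protein of lipogenic tissue whose name comes from its response to thyroid hormone, were likewise apart. Scd1, the main stearoyl-CoA desaturase of adipose tissue, reached 37249, 40370 and 28921 CPM against 13551, 7818 and 12602 CPM, a log2 difference of 1.68 (SD 0.35). This 1 gene took 3.15% to 4.06% of all counts in the high-Acaca and 0.877% to 1.52% in the low-Acaca libraries. Scd2 was at 1188, 1233 and 903 CPM against 365, 457 and 368 CPM (log2 difference 1.48, SD 0.22), and Thrsp at 937, 1067 and 926 CPM against 443, 261 and 297 CPM (1.58, SD 0.29). Scd1 of each low-Acaca library lay below that of each HFCD library (24205 to 28091 CPM), whereas Fasn of replicates 4 and 6 lay below, and that of replicate 1 within, the HFCD range of 1034 to 1378 CPM. Mid1ip1, a partner of acetyl-CoA carboxylase, had the smallest difference of the 9 genes apart (0.53, SD 0.24).

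The 4 remaining genes overlapped between the sets. They are Acacb, the mitochondrial form of acetyl-CoA carboxylase that restrains fatty acid oxidation (log2 difference -0.37), Elovl5 (-0.07), Fads1 (-0.01) and Fads2 (0.13), the last 3 acting on polyunsaturated fatty acids. Fads1 stood at 95.2, 84.2 and 93.1 CPM against 100, 101 and 75.2 CPM, and the sets overlapped. For Acacb the overlap came with 1 library far from the others, replicate 4 at 156 CPM against 38.5 to 63.2 CPM in the 5 others. These 4 genes, Slc25a1 and Mid1ip1 were named after their values were seen, to account for each member of the list.

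**Figure D1:**
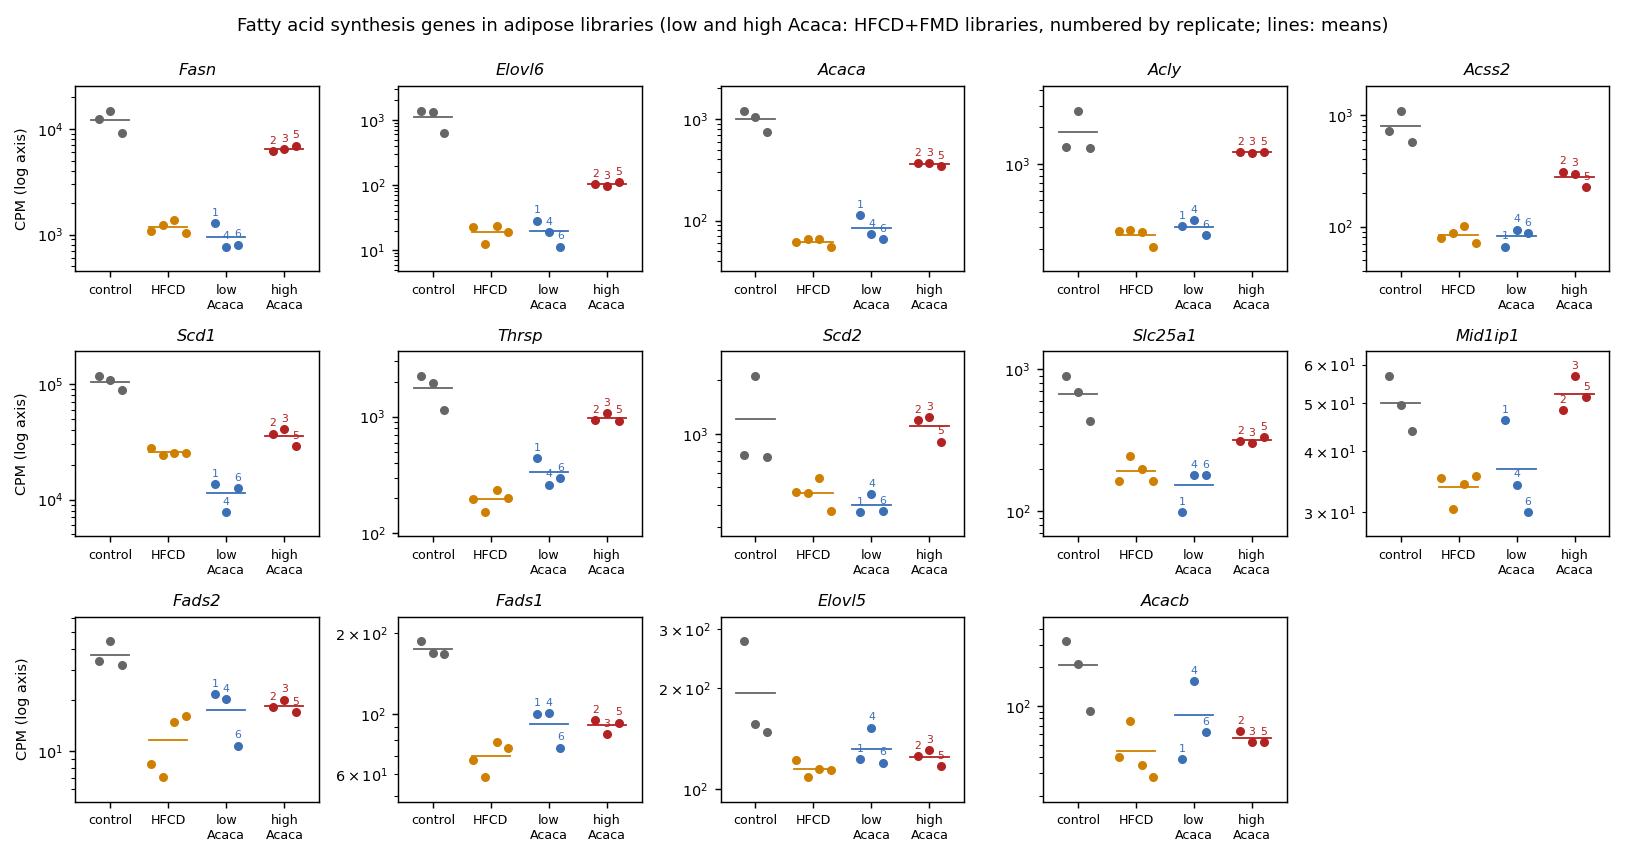
TMM-scaled CPM (log axis) of the 14 fatty acid synthesis genes in each adipose library, with 3 control, 4 HFCD, 3 low-Acaca and 3 high-Acaca libraries; points are libraries, lines are means, and numbers give the HFCD+FMD replicate. Fasn, Elovl6, Acly and Acss2 of the high-Acaca libraries lie between the HFCD and the control libraries, while Acacb, Elovl5, Fads1 and Fads2 overlap between the sets.

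Genes that supply NADPH and carbon to the pathway were higher as well. Of 13 genes of reducing power and carbon supply, 6 were apart and higher and 0 apart and lower, with a median difference of 0.39. Tkt, the transketolase of the pentose phosphate pathway, was at 873, 880 and 843 CPM against 355, 325 and 350 CPM, a log2 difference of 1.33 with an SD within sets of only 0.05. Me1, the cytosolic malic enzyme, was at 520, 575 and 439 CPM against 214, 337 and 261 CPM (0.93, SD 0.27). Pcx, pyruvate carboxylase, which feeds the citrate pool, was at 1237, 1221 and 1448 CPM against 416, 732 and 890 CPM (1.004, SD 0.41). Pgd, Rpe and the insulin-responsive glucose carrier Slc2a4 completed the genes apart. Slc2a4 was at 195, 222 and 250 CPM against 134, 145 and 185 CPM, a log2 difference of 0.53 (SD 0.21), so its sets nearly met. G6pdx, the first enzyme of the pentose phosphate pathway, had a difference of 0.02 and overlapping sets. Pgd and G6pdx were named after their values were seen, as were Mlx, Nfyb and Nfyc below.

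Slc2a5, the fructose carrier, had the second largest difference towards the high-Acaca set of the genes named by the rule, at a low level. It was at 2.02, 1.75 and 3.40 CPM in the high-Acaca and at 0.287, 0.0297 and 0.211 CPM in the low-Acaca libraries (log2 difference 3.49, SD 0.79). The largest in that direction belonged to Slc15a5, a member of a peptide carrier family, at 10.5, 13.1 and 12.0 CPM against 3.48, 0.385 and 0.453 CPM (3.66, SD 1.18). In Slc15a5 low-Acaca replicate 1 again lay nearest to the high-Acaca set.

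The list of lipogenic regulators had a smaller median difference than that of fatty acid synthesis (1.48), the list to which the dividing gene Acaca belongs. Gene by gene this did not always hold. Srebf1 and Mlxipl differed by more than Mid1ip1 and the fatty acid synthesis genes with overlapping sets. Of 16 lipogenic regulators 4 were apart and higher, 1 was apart and lower, and the median difference was 0.14. Srebf1, which encodes SREBP1, was at 214, 219 and 260 CPM against 110, 136 and 200 CPM (log2 difference 0.68, SD 0.33). Mlxipl, which encodes ChREBP, was at 107, 108 and 108 CPM against 99.0, 53.2 and 38.8 CPM (0.87, SD 0.49). In Srebf1 the low-Acaca library nearest to the high-Acaca set was replicate 6, and in Mlxipl it was replicate 1. Pparg, the master regulator of adipocytes, was at 250, 319 and 258 CPM against 225, 197 and 195 CPM (0.42, SD 0.16), and Mlx, the partner of ChREBP, had a difference of 0.30. Nfya, the subunit of NF-Y that binds CCAAT, was the gene apart and lower, at 36.4, 26.2 and 33.8 CPM against 51.0, 43.7 and 49.1 CPM (-0.59, SD 0.19). Nfyb (0.03) and Nfyc (-0.04), its partner subunits, overlapped between the sets.

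Genes of triglyceride assembly differed in part. Of 18 genes 5 were apart and higher and 0 apart and lower, with a median difference of 0.24, which was 0.04 without replicate 1. Gpam, a mitochondrial acyltransferase of the first step, was at 204, 221 and 407 CPM against 157, 102 and 106 CPM (log2 difference 1.14, SD 0.46). Dgat2, which adds the last fatty acid, was at 2218, 2602 and 2904 CPM against 1240, 1168 and 1475 CPM (0.99, SD 0.19). Mogat2, which acylates monoacylglycerol, was at 23.0, 25.0 and 29.7 CPM against 8.59, 4.27 and 7.19 CPM (2.00, SD 0.39), and its relative Mogat1 had a difference of 1.76. Other enzymes of the first and last steps overlapped between the sets, Gpat4 with a difference of -0.01 and Dgat1 with one of 0.24, both named after their values were seen. Dgat2 and Mogat2 of each high-Acaca library were also above those of each control library (up to 1830 and 22.0 CPM) and each HFCD library (up to 1921 and 14.3 CPM).

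On the side of lipid storage and release, 8 of 21 genes of lipolysis and the lipid droplet were apart and higher and 1 apart and lower, with a median difference of 0.10. Adrb3, the adipocyte beta-adrenergic receptor, was at 285, 389 and 418 CPM against 166, 141 and 250 CPM (log2 difference 0.998, SD 0.37). Plin1, which coats the lipid droplet, had a difference of 0.52 (SD 0.16), Lipe, hormone-sensitive lipase, one of 0.41 (SD 0.11) and Lpl, which takes up fatty acids from blood lipoproteins, one of 0.64 (SD 0.30). Pnpla2, which starts lipolysis, overlapped, at 1601, 1748 and 1790 CPM against 1304, 2396 and 1547 CPM. The gene apart and lower was Cidea, a droplet protein of thermogenic fat, at 1.15, 1.39 and 0.54 CPM against 3.45, 2.88 and 4.23 CPM (-1.79, SD 0.51). Ucp1, the uncoupling protein of thermogenic fat, overlapped, between 0.112 and 7.53 CPM in the 6 libraries.

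Pnpla3, a droplet enzyme under lipogenic control that is also among the adipocyte markers, was at 228, 226 and 304 CPM against 137, 59.9 and 104 CPM (log2 difference 1.40, SD 0.46). Of the 15 adipocyte markers 6 were apart and higher and 0 apart and lower, with a median difference of 0.42. Their sum overlapped between the sets, as given above. In whole tissue, fewer cells of a type and less RNA per cell cannot be told apart.

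Secreted products of adipocytes were divided in direction. Of 13 adipokine genes 3 were apart and higher and 2 apart and lower. Retn, resistin, was at 989, 1160 and 1103 CPM against 510, 192 and 601 CPM (log2 difference 1.47, SD 0.63), and Rbp4, the retinol carrier, at 419, 518 and 451 CPM against 199, 58.1 and 191 CPM (1.82, SD 0.72). Sfrp5, a secreted Wnt antagonist that is known to mark expanding adipocytes, was apart and lower, at 122, 127 and 46.1 CPM against 339, 246 and 142 CPM (-1.35, SD 0.74). Angptl4, an inhibitor of lipoprotein lipase that is known to be induced by fasting, was at 186, 188 and 281 CPM against 296, 832 and 555 CPM (-1.27, SD 0.58). Lep, leptin, the hormone whose level follows fat mass, did not divide the sets. It was at 1363, 1678 and 1536 CPM against 1471, 2386 and 1372 CPM, and every one of these 6 values lay between the control range of 351 to 871 CPM and the HFCD range of 3368 to 5587 CPM. Adipoq (log2 difference 0.65) and Cfd, complement factor D (1.53), overlapped too; Cfd was named after its values were seen.

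Insulin signalling genes showed small differences. Of 24 genes 4 (16.7%) were apart and higher and 2 (8.33%) apart and lower, against 9.51% and 7.62% of all genes. The median was 0.07. The receptor gene Insr (log2 difference 0.29) and the substrates Irs1 (0.63) and Irs2 (0.19) overlapped between the sets. Irs1 was at 47.1, 74.9 and 137 CPM against 71.9, 39.8 and 45.3 CPM, so only replicate 5 stood high. Grb14, an adaptor that inhibits the insulin receptor, was apart and lower, at 1.79, 2.47 and 2.30 CPM against 7.06, 6.20 and 4.20 CPM (-1.37, SD 0.32). Without replicate 1 the number apart and higher was 10, beside 20.3% of all genes.

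**Figure D2:**
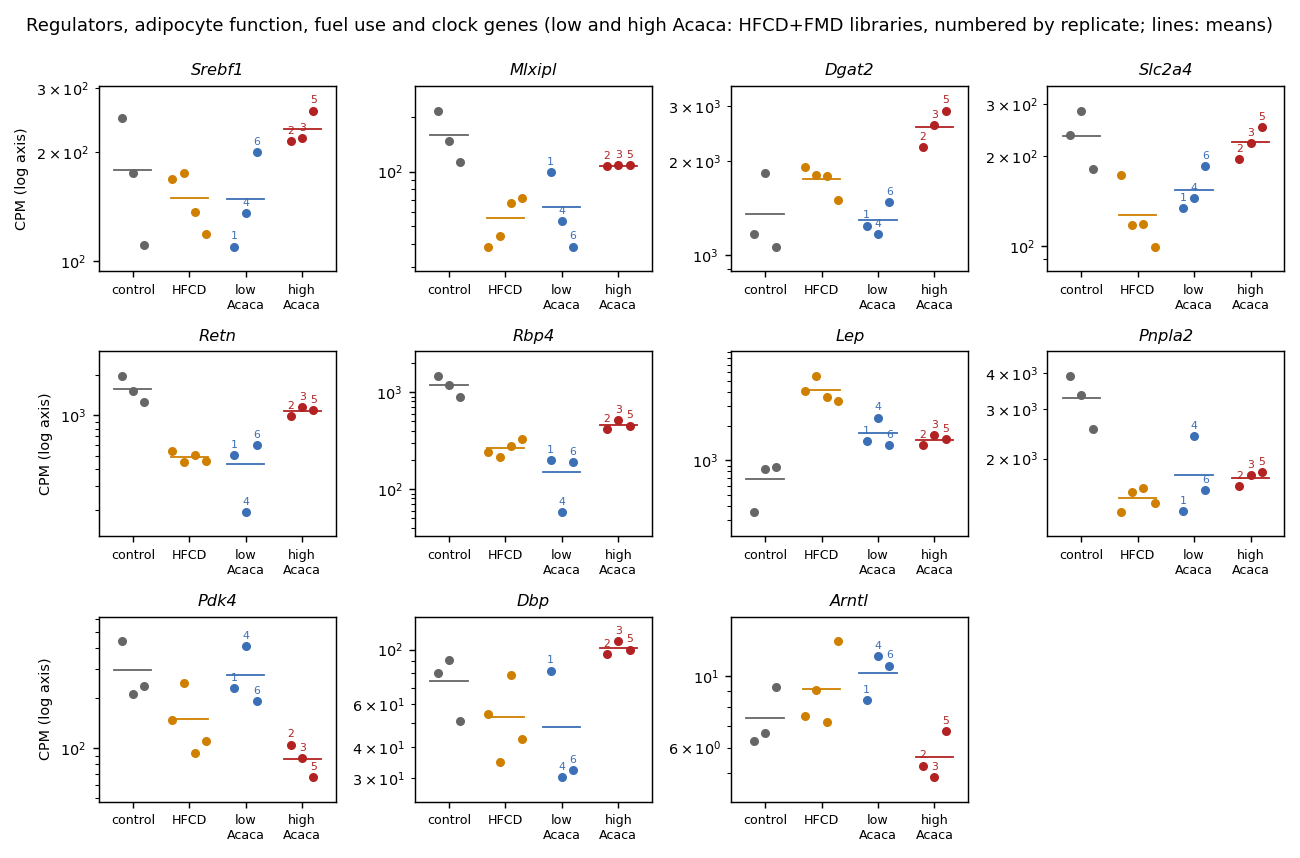
TMM-scaled CPM (log axis) of genes of regulation, storage, secretion, fuel use and the clock in each adipose library; points are libraries, lines are means and numbers give the HFCD+FMD replicate. Dgat2, Retn and Rbp4 are higher and Pdk4 and Arntl lower in every high-Acaca than in every low-Acaca library, and Lep and Pnpla2 overlap.

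Of 25 fatty acid oxidation genes 0 were apart and higher and 4 apart and lower, and 7 were higher on the mean, with a median difference of -0.12. Pdk4, the kinase that shuts off pyruvate dehydrogenase when fat is burned, was at 105, 87.0 and 66.8 CPM against 231, 411 and 192 CPM (log2 difference -1.63, SD 0.47). Pdk4 is known to be induced by fasting, and it was higher in each low-Acaca library than in each high-Acaca library. The cause of this difference was not tested. Cpt1a, the carnitine acyltransferase that admits fatty acids to mitochondria, had a difference of -0.67 (SD 0.31), and Acaa2, the thiolase of the last step of the cycle, one of -0.68 (SD 0.21). Leaving out replicate 1 raised the count apart and lower to 14, beside 19% of all genes.

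Pyruvate dehydrogenase itself was higher. Pdhb, its E1 beta subunit, was at 151, 169 and 155 CPM against 99.0, 91.9 and 98.2 CPM (log2 difference 0.71, SD 0.07). Pdha1, the E1 alpha subunit, was at 348, 359 and 377 CPM against 281, 239 and 281 CPM (0.44, SD 0.10). Of 25 tricarboxylic acid cycle genes, with which these are listed, 6 were apart and higher and 0 apart and lower (median 0.19), citrate synthase Cs among them (0.35, SD 0.15). Nuclear genes of oxidative phosphorylation showed a small and even difference. Of 71 genes 66 were higher on the mean, against 7981 of all 15111 genes (median 0.19). Of the 71, 0 were apart and lower and 9 (12.7%) apart and higher, near the 9.51% of all genes. Ndufa10 of complex I was among the 9 (0.40, SD 0.14). The count apart and higher rests on which libraries enter. Without replicate 6 it was 50 of the 71, beside 16.2% of all genes, and without replicate 5 it was 17, beside 13.7%. The corresponding count for the tricarboxylic acid cycle without replicate 6 was 14 of 25. Of 13 mitochondrially encoded genes on the list, 7 were among the genes kept. The names mt-Nd3, mt-Nd4l, mt-Co2, mt-Co3, mt-Atp6 and mt-Atp8 were not, so the sums cover only part of these genes. The 7 genes had overlapping sets, with sums of 38550 to 72488 CPM in the high-Acaca and 17926 to 62077 CPM in the low-Acaca libraries.

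Cholesterol synthesis, which shares the SREBP family of regulators, was mixed. Of 21 genes 5 were apart and higher and 2 apart and lower, with a median difference of 0.36. Nsdhl, a sterol dehydrogenase late in the pathway, was among the genes apart and higher, with a difference of 0.99. Without replicate 4 the count apart and higher was 12, beside 12.7% of all genes.

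Clock genes also differed between the sets. Of 19 genes 5 were apart and higher and 3 apart and lower, with a median of 0.35. Dbp, an output gene driven by the CLOCK and BMAL1 pair, was at 95.6, 108 and 100 CPM against 82.2, 30.2 and 32.3 CPM (log2 difference 1.23, SD 0.57). Arntl, which encodes BMAL1, was at 5.28, 4.86 and 6.75 CPM against 8.40, 11.5 and 10.7 CPM (-0.85, SD 0.24), and Npas2, a relative of CLOCK, at 0.721, 0.875 and 1.10 CPM against 1.72, 4.00 and 2.14 CPM (-1.41, SD 0.48). Bhlhe40, a repressor of that pair, had a difference of 0.98 (SD 0.33). Dbp and Arntl are known to peak at opposite times of day, and here they differed in opposite directions. The hour of tissue collection was not given, and its part in these differences was not tested.

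Macrophage genes were lower in the high-Acaca libraries, with replicate 2 as the exception among them. Of 20 macrophage markers 1 was apart and higher and 7 apart and lower, with a median difference of -0.83, and 18 of 20 were lower on the mean. The summed markers were 4221, 2018 and 2093 CPM in high-Acaca replicates 2, 3 and 5 and 4038, 5169 and 5638 CPM in low-Acaca replicates 1, 4 and 6. These sums overlapped, because replicate 2 lay above replicate 1. Without replicate 2, 18 of the 20 markers were apart and lower, beside 14% of all genes, and without replicate 1 it was 15, beside 19%.

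Mpeg1, the pore-forming perforin-2 of macrophages, was at 244, 95.5 and 70.0 CPM against 281, 440 and 506 CPM (log2 difference -1.75, SD 0.73). Cd68, a lysosomal macrophage protein, was at 303, 131 and 97.7 CPM against 309, 565 and 346 CPM (-1.32, SD 0.68), so its sets were apart by a margin of only a few CPM. Cd163, a scavenger receptor of resident macrophages, was the 1 marker apart and higher, at 70.6, 74.2 and 74.4 CPM against 63.5, 21.2 and 23.0 CPM (1.22, SD 0.62). Cd163 was named after its values were seen.

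Genes of lipid-associated macrophages, the lipid-laden cells of obese fat, had the lowest median of all lists. Of 20 genes 1 was apart and higher (Lpl, which adipocytes also express) and 5 apart and lower, with a median of -1.42. Atp6v0d2, a subunit of the lysosomal proton pump, was at 65.1, 9.29 and 6.53 CPM against 68.4, 156 and 168 CPM (log2 difference -2.93, SD 1.36). Trem2, the lipid receptor of these cells, was at 35.9, 10.3 and 12.3 CPM against 40.3, 99.2 and 104 CPM (-2.16, SD 0.87). Lipa, lysosomal acid lipase, was at 237, 122 and 112 CPM against 267, 549 and 514 CPM (-1.52, SD 0.59), and Spp1, osteopontin, had a difference of -2.61 (SD 1.38). In each of these genes replicates 1 and 2 were neighbours near the middle, replicates 3 and 5 were low and replicates 4 and 6 were high. The count apart and lower was 17 without replicate 1, beside 19% of all genes, and 14 without replicate 2, beside 14%.

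Chemokine and cytokine genes were lower in part. Of 19 genes 0 were apart and higher and 4 apart and lower (median -0.55), and 10 were apart and lower without replicate 2, beside 14% of all genes. Ccl2, which draws monocytes into tissue, was at 15.1, 11.2 and 5.67 CPM against 23.4, 55.3 and 35.9 CPM (log2 difference -1.86, SD 0.67). Il1rn, the secreted antagonist of the interleukin-1 receptor, was outside that list and had a difference of -2.66 (SD 1.17).

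Genes of dividing cells were lower on the mean for 30 of 30 genes (median -0.74), but only 2 of the 30 were apart. Mki67, the Ki-67 marker of dividing cells, overlapped, at 78.4, 49.6 and 25.3 CPM against 59.5, 106 and 66.3 CPM. Kif11, a motor of the mitotic spindle, was apart and lower, at 1.76, 1.51 and 1.17 CPM against 2.01, 3.91 and 2.96 CPM (log2 difference -0.94, SD 0.39). Without replicate 1 the number apart and lower was 24, beside 19% of all genes, and without replicate 2 it was 20, beside 14%.

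Extracellular matrix genes had 1 gene apart and higher and 6 apart and lower of 34, with a median of -0.15. Timp1, an inhibitor of matrix proteases, was at 4.30, 3.38 and 2.39 CPM against 8.59, 37.9 and 6.82 CPM (log2 difference -1.98, SD 0.99), with replicate 4 far above the rest. Col15a1, a basement membrane collagen, was the gene apart and higher, at 1199, 1460 and 1498 CPM against 850, 659 and 940 CPM (0.77, SD 0.22). Col6a3, a collagen of adipose matrix, overlapped (-0.09). Without replicate 6 the number apart and lower was 12, beside 13.2% of all genes.

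**Figure D3:**
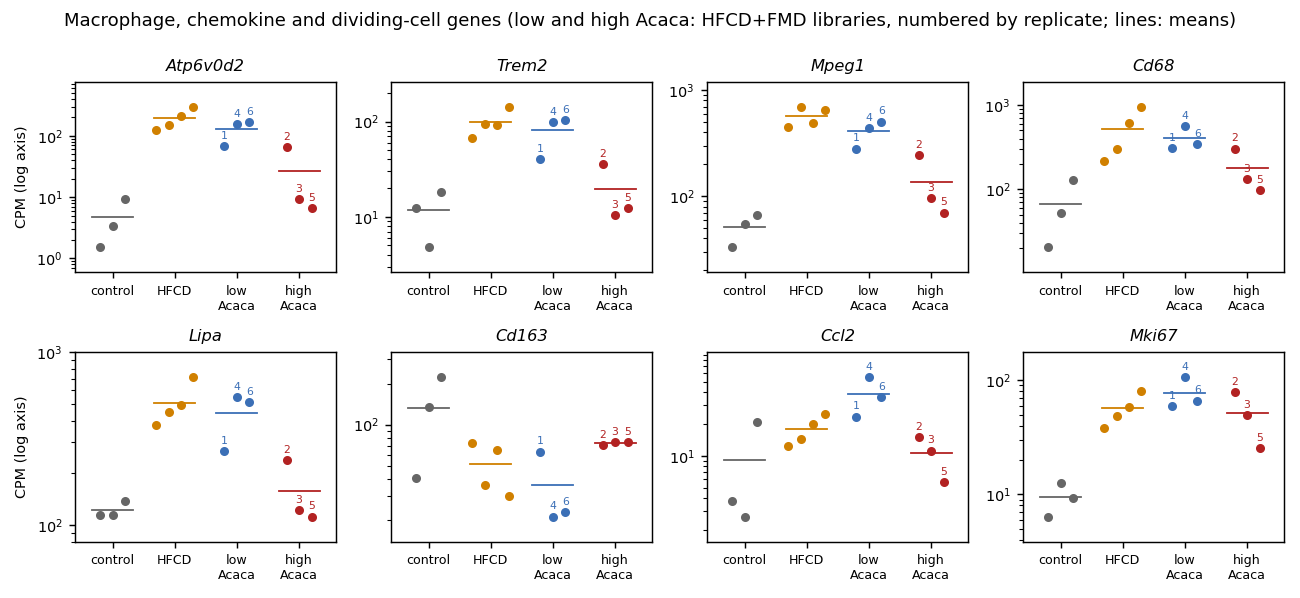
TMM-scaled CPM (log axis) of 8 macrophage, chemokine and proliferation genes in each adipose library; points are libraries, lines are means and numbers give the HFCD+FMD replicate. In Atp6v0d2, Trem2, Mpeg1, Cd68 and Lipa high-Acaca replicate 2 lies beside low-Acaca replicate 1, replicates 3 and 5 lie near the control libraries and replicates 4 and 6 near the HFCD libraries.

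Mesothelial markers, which report the lining of visceral fat, were higher on the mean in the high-Acaca set for 14 of 15 genes (median difference 0.43), and 1 of 15 was apart. They summed to 856, 539 and 1310 CPM in replicates 2, 3 and 5 and to 1239, 230 and 457 CPM in replicates 1, 4 and 6, so the sums overlapped. Msln, mesothelin, overlapped, between 2.64 and 22.9 CPM. Of 18 endothelial markers 0 were apart and higher and 1 apart and lower, and of 17 fibroblast and progenitor markers 1 and 1. Each of these shares was below the 9.51% and 7.62% of all genes. The part of cell composition in the differences above was not tested.

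**Figure D4:**
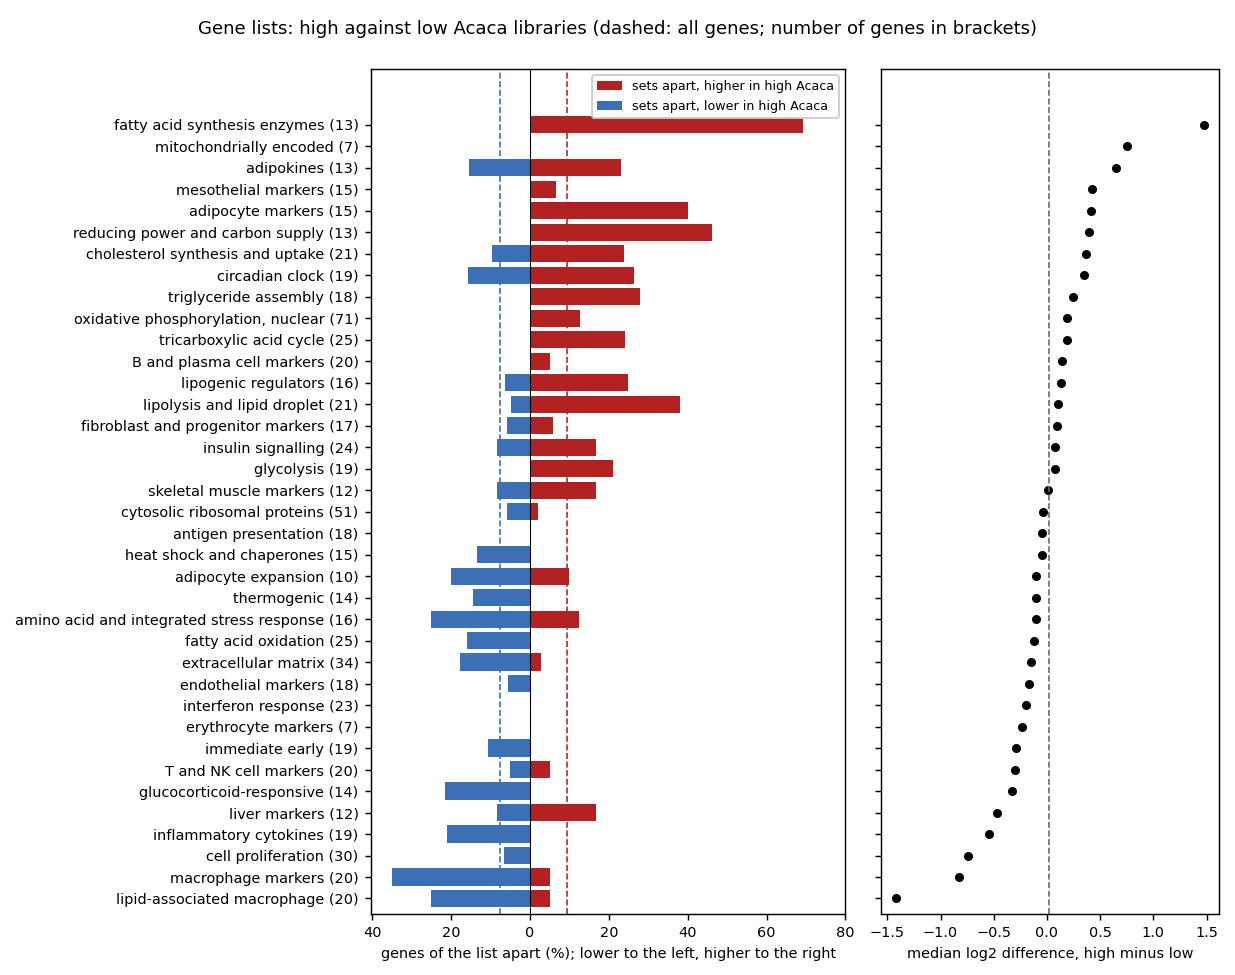
For each of 37 gene lists with at least 7 genes, the share of genes apart between the 3 high-Acaca and 3 low-Acaca libraries (left, percent; higher to the right, lower to the left, dashed lines at 9.51% and 7.62% for all genes) and the median log2 difference (right, dashed line at 0.02 for all genes). Fatty acid synthesis stands at the top with a median of 1.48 and lipid-associated macrophage genes at the bottom with -1.42.

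The genes that distinguished the sets were then read in adipose libraries that the division did not use. HFCD was compared with control in 4 and 3 libraries with edgeR's quasi-likelihood test and Benjamini-Hochberg adjustment, in a fit that held no HFCD+FMD library. The mitochondrially encoded genes present in the deposited table took 12.6% to 29.3% of the counts in control and 2.17% to 6.08% in HFCD libraries. The 20 most counted genes took 29.8% to 46.7% in control and 14.5% to 17.9% in HFCD libraries. The part of this RNA composition in the differences between the 2 diets was not tested. Of 14977 genes tested, 27.3% passed at an adjusted p below 0.05, 12.6% being lower and 14.8% higher in HFCD. The genes higher in the high-Acaca libraries held a larger share of genes that fell in HFCD than the background, and the genes lower in them a larger share of genes that rose. Of 1425 genes apart and higher, 542 (38%) fell in HFCD and 43 (3.02%) rose, with a median log2 fold change of -0.42. Of 1147 genes apart and lower, 582 (50.7%) rose in HFCD and 9 (0.785%) fell, with a median of 0.74. The 12404 genes whose sets overlapped were near the background, with 10.8% lower and 12.8% higher. Read from the other side, 28.8% of all genes that fell in HFCD were among those apart and higher, and 26.3% of all that rose were among those apart and lower.

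The shares were larger for larger differences. Of 224 genes apart and at least 2-fold higher, 114 (50.9%) fell in HFCD and 12 (5.36%) rose. Of 250 genes apart and at least 2-fold lower, 178 (71.2%) rose and 3 (1.2%) fell. The number of calls in HFCD against control depended on the libraries. Without control replicate 1, control replicate 3 or HFCD replicate 2, 1123, 1152 and 1186 genes were lower in HFCD in place of 1886. Over the 7 fits without 1 library, 26.3% to 40.1% of genes apart and higher fell, against 7.46% to 13.2% of all genes, and 35.3% to 56.8% of genes apart and lower rose, against 9.87% to 16.7%.

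**Figure D5:**
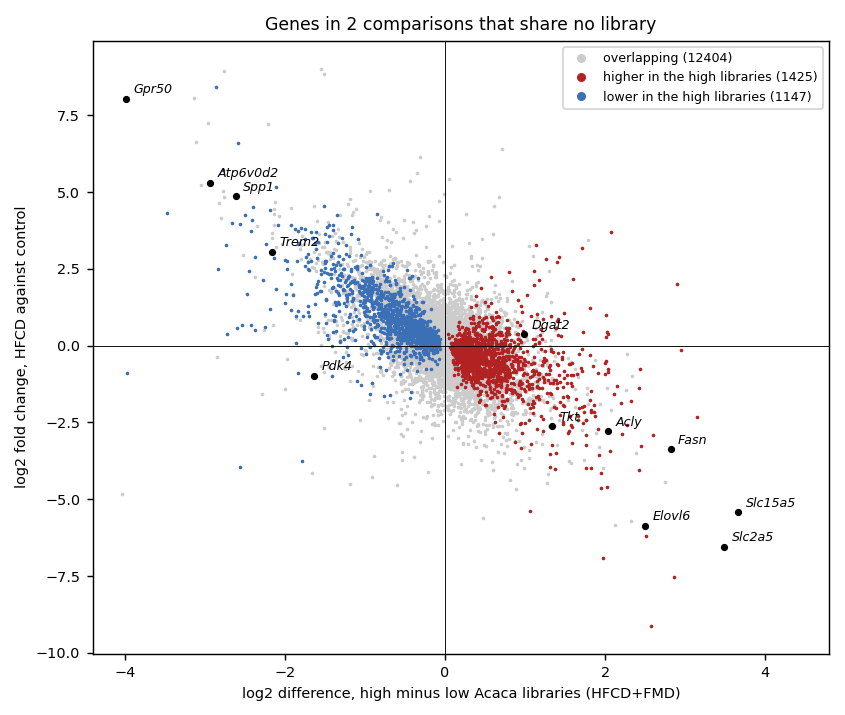
For each gene tested, the log2 difference between high-Acaca and low-Acaca HFCD+FMD libraries (x axis) and the log2 fold change of HFCD against control (y axis), which share no library; red and blue points are genes whose sets were apart (1425 higher, 1147 lower), grey points overlap. Fasn, Elovl6, Acly and Tkt lie at the lower right, Atp6v0d2, Trem2 and Spp1 at the upper left, and Dgat2 and Pdk4 off that diagonal.

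In this separate comparison the fatty acid synthesis list fell as a whole. All 13 genes other than Acaca passed and were lower in HFCD, with a median log2 fold change of -2.02. Control libraries held Elovl6 at 630 to 1397 CPM, and it fell by 5.86 on the log2 scale to 12.3 to 23.8 CPM (SE 0.37, edgeR adjusted p = 0.000249). Fasn was 12222 ± 2888 CPM in control (SD, n = 3) and 1182 ± 155 CPM in HFCD (n = 4), a fall by 3.37 on the log2 scale with an SE of 0.23 (edgeR adjusted p = 0.000249). The high-Acaca mean of Fasn (6527 ± 404 CPM) lay between these means, and the low-Acaca mean (950 ± 284 CPM) lay below that of HFCD. Acly fell by 2.79 on the log2 scale with an SE of 0.27 (edgeR adjusted p = 0.000747). The 4 genes with overlapping sets fell in HFCD too, Acacb by 2.21, Fads2 by 1.66, Fads1 by 1.32 and Elovl5 by 0.75 on the log2 scale. Elovl5 did not pass without control replicate 1 or any 1 of the HFCD libraries (edgeR adjusted p 0.0502 to 0.0753), and Scd2 (log2 fold change -1.36) did not pass without control replicate 3 or HFCD replicate 1, 2 or 4 (0.0534 to 0.0638).

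The other metabolic lists followed in part. Of the 13 genes of reducing power and carbon supply, 8 fell in HFCD and 0 rose, Tkt by 2.62 on the log2 scale (SE 0.18, edgeR adjusted p = 0.000249). Of 25 tricarboxylic acid cycle genes 15 fell and 1 rose, Pdhb falling by 1.81 (edgeR adjusted p = 0.00206), and of 71 nuclear oxidative phosphorylation genes 45 fell and 0 rose. Of 18 triglyceride assembly genes 7 fell and 1 rose, with Gpam lower by 1.35 on the log2 scale (edgeR adjusted p = 0.00389). Of 21 cholesterol genes 8 fell and 3 rose, of 21 lipolysis and droplet genes 7 and 2, and of 24 insulin signalling genes 7 and 3. Of 16 lipogenic regulators 1 fell and 1 rose. Of 25 fatty acid oxidation genes 3 fell and 1 rose, although 4 were apart and lower in the high-Acaca libraries and 0 higher. Of all genes 12.6% fell and 14.8% rose. Rbp4 and Retn fell by 2.15 and 1.68 (edgeR adjusted p = 0.000765 and 0.00101). The carriers Slc15a5 and Slc2a5 fell by 5.41 and 6.54 (edgeR adjusted p = 5.24e-05 and 0.000716).

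Macrophage and proliferation genes, lower in the high-Acaca libraries, rose in HFCD. Of 20 macrophage markers 13 rose and 0 fell, of 20 lipid-associated macrophage genes 14 and 0, of 30 proliferation genes 28 and 0, and of 34 matrix genes 15 and 0. Atp6v0d2 was 4.72 ± 3.98 CPM in control (SD, n = 3) and 195 ± 73.6 CPM in HFCD (n = 4), a rise by 5.30 on the log2 scale with an SE of 0.61 (edgeR adjusted p = 0.00127). Trem2 rose by 3.05 (SE 0.46, edgeR adjusted p = 0.00308) and Mpeg1 by 3.47 (SE 0.29, edgeR adjusted p = 0.000493). Sfrp5 rose as well (4.26, SE 0.60, edgeR adjusted p = 0.00245), and so did Trim67 (3.75, SE 0.28, edgeR adjusted p = 0.000294), a member of the adipocyte expansion list that was apart and lower in the high-Acaca libraries (-1.40, SD 0.57). Gpr50, a receptor of the melatonin receptor family, had the largest difference towards the low-Acaca libraries (-3.99, SD 1.62), at 0.49, 0.754 and 0.09 CPM against 1.95, 27.8 and 4.95 CPM. It was at 11.5 to 39.2 CPM in the HFCD libraries and at no more than 0.12 CPM in any control library.

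Several genes apart between the sets did not pass in HFCD against control, by edgeR's test with the same adjustment. The log2 value of HFCD minus control was -0.25 for Srebf1 (adjusted p = 0.506; 0.09 without control replicate 1), 0.38 for Dgat2 (adjusted p = 0.224) and 0.23 for Angptl4 (adjusted p = 0.273). Dbp (-0.49, adjusted p = 0.242), Arntl (0.30, adjusted p = 0.401) and Ccl2 (0.96, adjusted p = 0.300) did not pass either, though without control replicate 5 Ccl2 passed (2.52, adjusted p = 0.00173). For Pdk4 it was -0.98 (adjusted p = 0.0867), which passed without HFCD replicate 2 (-1.34, adjusted p = 0.0258) and with DESeq2 (-0.99, adjusted p = 0.0279). It was thus lower on the mean both in HFCD against control and in the high-Acaca against the low-Acaca libraries. Fabp3, the muscle form of fatty acid binding protein, was at 0.404, 0.181 and 0.158 CPM in the high-Acaca and 4.25, 6.23 and 3.65 CPM in the low-Acaca libraries (log2 difference -3.98, SD 0.50). Its log2 fold change in HFCD was -0.88 (adjusted p = 0.548), and 1.92 without control replicate 1 (adjusted p = 0.0857).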

How the data were processed

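RNA of adipose tissue was sequenced after ribosomal RNA removal, per the labels' protocols. The submitters' processing notes name edgeR, limma, R 3.5.3, STAR 2.5.3 and mm10; how reads were counted, and whether strand was used, is not given in the sources used here. As deposited, the count table holds raw whole numbers per gene. The authors also deposited log2 CPM values, which equalled log2 CPM of the counts (0.5 added) up to 1 constant per library (largest departure 9.97e-09). Symbols came from the deposited tables, and 40 of 63 genes found only in the counts were named from GENCODE M21. No per-sample column was left out (0). No 2 libraries of the same diet held identical values or agreed within counting noise (24 pairs, lowest chi-square per gene 24.5).

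Counts were analysed in R 4.3.3 with edgeR 4.0.16. Genes were kept by filterByExpr (15112 of 15145) and scaled with TMM. CPM are TMM-scaled, differences are means of log2 CPM with a prior count of 2, and SDs within sets are pooled. HFCD was compared with control (14977 genes) by the robust two-sided quasi-likelihood F-test with Benjamini-Hochberg adjustment at 0.05. Labels do not tie libraries to animals, so p-values measure the spread between libraries. The division, the 40 gene lists and the named genes were chosen with earlier results of these data known. Named genes were 26 fixed ones, the 12 largest differences each way among genes apart with at least 1 CPM, and up to 4 genes apart per list; exceptions are marked. The script was tested on simulated data. Alternatives were RLE scaling, other filters, prior count 0.5, the deposited log2 values, DESeq2 1.42.0, a fit of all 3 diets, age as a covariate, each library left out, and, chosen after seeing the data, thinning to equal depth. Heart tables were not used, and some genes are not reported here.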

Additional observations from a re-analysis of the deposited data

Results flagged for a closer look

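Among the genes and list sums named here, 218 groups of 4 or 6 libraries were examined for 1 library far from the others. By Dixon's 95% criterion 11 met it. Chance alone gives about 1 in 20, which is close to the number found. The groups share libraries and are not independent, and many of the genes were named for their difference between the sets. In 7 of these 11 the library was HFCD+FMD replicate 4 (low-Acaca). It was the highest of 6 for Acacb (156 CPM, next 63.2), Lep (2386 CPM, next 1678), Ucp1 (7.53 CPM, next 1.51), Timp1 (37.9 CPM, next 8.59), Gpr50 (27.8 CPM, next 4.95), Gdf15 (9.64 CPM, next 3.17) and the summed extracellular matrix genes (24423 CPM, next 19718). Replicate 4 also had the lowest Fasn and the lowest Scd1 of the 6 libraries. HFCD+FMD replicate 5 (high-Acaca) was the highest for Irs1 (137 CPM, next 74.9). In the HFCD group, replicate 4 was the lowest for Acly (209 CPM, next 275) and the highest for Spp1 (35.8 CPM, next 17.1), and replicate 2 was the highest for Ucp1 (8.95 CPM, next 0.273).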

How the results depend on the processing

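None of the 71 named genes whose high-Acaca and low-Acaca sets were apart changed direction under RLE scaling, prior count 0.5, the deposited log2 values or thinning, and no named gene moved by more than its SD within sets under these settings. Leaving out 1 library cannot reverse a gene whose sets are apart, nor move a difference of 3 against 3 beyond that SD, so it gives no check on either. Of the 20 named genes with overlapping sets, 13 changed sign without at least 1 of the libraries, such as Acacb (0.18 without replicate 4, against -0.37) and Lep (0.098 without replicate 4, against -0.15), and Nfyb also on thinning. The counts of genes apart rose where fewer libraries had to be separated: 1922 to 3068 higher (3068 without replicate 1, 2450 without replicate 6) and 1535 to 2874 lower (2874, 2121 and 1990 without replicates 1, 2 and 6), against 1437 and 1151. List medians over the fits without 1 library ranged from 1.39 to 1.62 for fatty acid synthesis (1.62 without replicate 5), 0.26 to 0.58 for reducing power (0.26, 0.52 and 0.58 without replicates 5, 2 and 6), 0.037 to 0.28 for triglyceride assembly (0.037 without replicate 1) and 0.069 to 0.17 for insulin signalling (0.17 without replicate 4). The 12 other list medians moved by less than their SD, though by over 1.5 times for oxidative phosphorylation (0.09 and 0.34 without replicates 1 and 6), the tricarboxylic acid cycle (0.11 and 0.32, the same replicates), lipogenic regulators (0.06 and 0.21, the same), fatty acid oxidation (-0.28 and -0.08 without replicates 1 and 2), matrix (-0.29 without replicate 1), cholesterol synthesis (0.21 without replicate 1) and proliferation (-0.45 without replicate 5). In HFCD against control, 1123 to 1992 genes were lower without 1 library (1123, 1152 and 1186 without control replicate 1, control replicate 3 or HFCD replicate 2) and 1483 to 2504 higher, against 1886 and 2210. The sign reversed for some genes that did not pass: over the fits without 1 library, log2 values ranged from -0.49 to 0.088 for Srebf1, -4.70 to 3.01 for Ucp1 and -1.46 to 1.92 for Fabp3 (each highest without control replicate 1), -1.23 to 0.62 for Msln (highest without control replicate 5) and -0.011 to 0.35 for Nfyc (lowest without control replicate 3). With age as a covariate Ucp1 had 0.51 and Fabp3 0.43; the cause was not tested. Of the other gene values in that comparison 1107 kept direction and call, 39 lost the call and 29 gained it. No paired analysis was possible because the data columns carry sample numbers that no 2 groups share. With 3 libraries a set, a single library decides whether a gene is apart, and genes near or below 1 CPM carry large counting error.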

Other observations

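Stress and hormone-responsive genes not described above also differed between the sets. Of 16 genes of the amino acid and integrated stress response, 2 were apart and higher and 4 apart and lower in the high-Acaca libraries (median log2 difference -0.11), against 9.51% and 7.62% of all genes. Gdf15, a stress-induced hormone that reduces food intake, was at 0.721, 0.453 and 0.585 CPM in high-Acaca replicates 2, 3 and 5 and at 1.12, 9.64 and 3.17 CPM in low-Acaca replicates 1, 4 and 6 (-2.38, SD 1.09). Chac1, a glutathione-degrading enzyme induced by ATF4, lay the other way, at 6.46, 5.16 and 6.08 CPM against 2.33, 2.64 and 4.32 CPM (0.96, SD 0.35). Of 14 glucocorticoid-responsive genes 0 were apart and higher and 3 apart and lower. Sgk1, a kinase induced by glucocorticoids, was at 43.01, 33.2 and 39.1 CPM against 58.0, 79.8 and 66.1 CPM (-0.82, SD 0.21), and Fos, an immediate early gene, at 9.20, 6.03 and 6.14 CPM against 10.4, 38.4 and 39.5 CPM (SD 0.81).

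Lists of other immune programmes are given next, beside the 9.51% of all genes apart and higher and the 7.62% apart and lower. At these shares lists of 18 to 23 genes hold few genes apart, so their low counts are not read as a result. None of 23 interferon response genes and none of 18 antigen presentation genes was apart in either direction. Of 20 B and plasma cell markers 1 was apart and higher and 0 apart and lower, and of 20 T and NK cell markers 1 and 1. On the mean, 3 interferon genes were higher and 20 lower (median -0.20), and 4 T and NK markers higher and 16 lower (median -0.30). Antigen presentation had 8 higher and 10 lower, and B and plasma cell markers 11 and 9. Of 51 ribosomal protein genes 1 (1.96%) was apart and higher and 3 (5.88%) apart and lower.

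Trp63, a transcription factor of epithelial stem cells, was at 3.83, 6.58 and 6.03 CPM in the high-Acaca and 2.52, 0.0593 and 0.634 CPM in the low-Acaca libraries (log2 difference 3.15, SD 1.58). C6, a component of the complement membrane attack complex, was at 49.9, 70.1 and 82.9 CPM against 40.98, 5.25 and 8.39 CPM (2.43, SD 1.12). In both genes replicate 1 was the low-Acaca library nearest to the high-Acaca set.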
